A study of Mus musculus with 6 samples.

Results

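The genes described here are 53 chromatin regulators: subunits of the BAF remodelling complexes, Polycomb proteins, enzymes that write or erase histone methylation, and the acetyltransferases, deacetylases and CHD remodellers that work beside them. They were taken by name from a table of 15330 genes, and all 53 were measured. RNA came from hearts dissected out of mouse embryos at day 9.5 of gestation. There were 3 libraries of hearts homozygous for H2-URI d/d, in which CRISPR-Cas9 removed 373 kb of DNA that lies upstream of the cardiac transcription factor gene Hand2, and 3 libraries of wildtype hearts. Each group held 2 libraries labelled female and 1 labelled male, all of batch 1, but whether a library was 1 heart or a pool is not stated, so p-values measure the spread between libraries. The deletion is carried by every cell of the embryo, and the labels give neither strain nor number of founder lines. The comparison asks whether genes that package chromatin for the whole transcriptome are set at another level in hearts that lack the interval.

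BAF complexes use the energy of ATP to slide or evict nucleosomes, and in the mouse heart they work with tissue-specific subunits such as Smarcd3 and Dpf3. Polycomb complexes keep developmental genes silent: PRC2 methylates lysine 27 of histone H3, and PRC1 binds that mark and compacts chromatin. Methylation of lysine 4 by the Kmt2 enzymes and acetylation by Ep300 and Crebbp mark active promoters and enhancers. Loss of several of these genes in mice, among them Smarca4, Ezh2, Jarid2, Kmt2d and Chd7, is known to disturb heart development.

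The libraries held 25583210 to 32043595 reads. Hand2 itself was at 1025, 1158 and 1163 normalized counts in deletion hearts, against 3911, 3789 and 4407 in wild-type hearts, and it fell by 1.85 on the log2 scale (adjusted p = 1.51e-05, limma). Libraries are named by the code in their titles. For 4 of the 6, the per-sample file is recorded under the other group, and by that record the log2 fold change would be 0.57 for Hand2 and −0.10 for Kdm6b. Of the marker lists, the summed cardiomyocyte level was 623696 to 685684 normalized counts in deletion and 600484 to 658032 in wild-type hearts (0 of 8 genes called), and the proliferation list had 57216 to 62492 and 59560 to 62119 (0 of 7 called). Cushion mesenchyme markers summed to 1234 to 1694 in deletion and 1834 to 2481 in wild-type hearts, with 3 of 5 called lower, and epicardial markers to 2089 to 3495 and 1459 to 2303, with 0 of 6 called. Endothelial markers overlapped (22638 to 23425 and 21941 to 23423, with 1 of 8 called lower and 1 higher), and so did erythroid markers (82732 to 439580 and 117087 to 341149, 0 of 6 called). Pharyngeal epithelium gave 313 to 522 and 193 to 781 (4 of 5 measured, 0 called), and neural cells 114 to 219 and 122 to 149 (2 of 5 measured, 0 called). Macrophage markers gave 275 to 334 in deletion and 133 to 186 in wild-type hearts (2 of 4 measured, 1 called higher). In bulk RNA fewer cells of a type and less RNA per cell cannot be told apart, and the part of these cell types in the values below was not tested.

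Calls among the chromatin regulators were near the share of calls among all genes, so their number is no result about these genes. The same holds for the counts of 0 in the small role groups below. In limma, at an adjusted p under 0.05 over all genes, 1 of the 53 regulators was higher in deletion hearts, the H3K27 demethylase gene Kdm6b, and 0 were lower. Over all genes 1.55% were called higher and 1.5% lower, 3.05% in either direction. That is 237 genes higher and 230 lower, a split that was 398 and 206 with libraries scaled to equal totals and 212 and 338 with the length and GC trend described below removed. At an unadjusted p under 0.05, 8 members were higher, against 10.2% of all genes, and 5 lower, against 11.2%. The count of 0 lower was the same in edgeR and in DESeq2. In edgeR 1 member was higher, where 1.75% of all genes were higher and 3.26% were called in either direction. In DESeq2 4 were higher, where 3.73% of all genes were higher and 7.89% were called in either direction. The median log2 fold change of the members was 0.02, against −0.0073 over all genes, and the members ran from −0.20 for Hdac1 to 0.52 for Cbx7.

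How large a change these libraries leave room for is given by the intervals. For 36 of the 53 members (67.9%) the 95% interval of the log2 fold change lay within 0.32 of 0 in either direction, against 35.6% of all genes. Within 1.5-fold lay 50 of the 53, against 69.4% of all genes. These shares also reflect the width of the intervals, whose median reach to either side was 0.16 for members and 0.24 for all genes. The 3 that reached further were Dpf1, Cbx7 and Kmt2d. Dpf1, a neuronal BAF subunit in mice, and the PRC1 gene Cbx7 were also low in reads, with 114 ± 19.6 and 61.5 ± 9.65 normalized counts in wild-type hearts (SD, n = 3). Ezh2, the main H3K27 methyltransferase of dividing cells, gave nearly equal means: 3311, 3276 and 3301 in deletion hearts, against 3318, 3372 and 3206 in wild-type hearts, with an interval from −0.13 to 0.13 on the log2 scale.

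**Figure D1:**
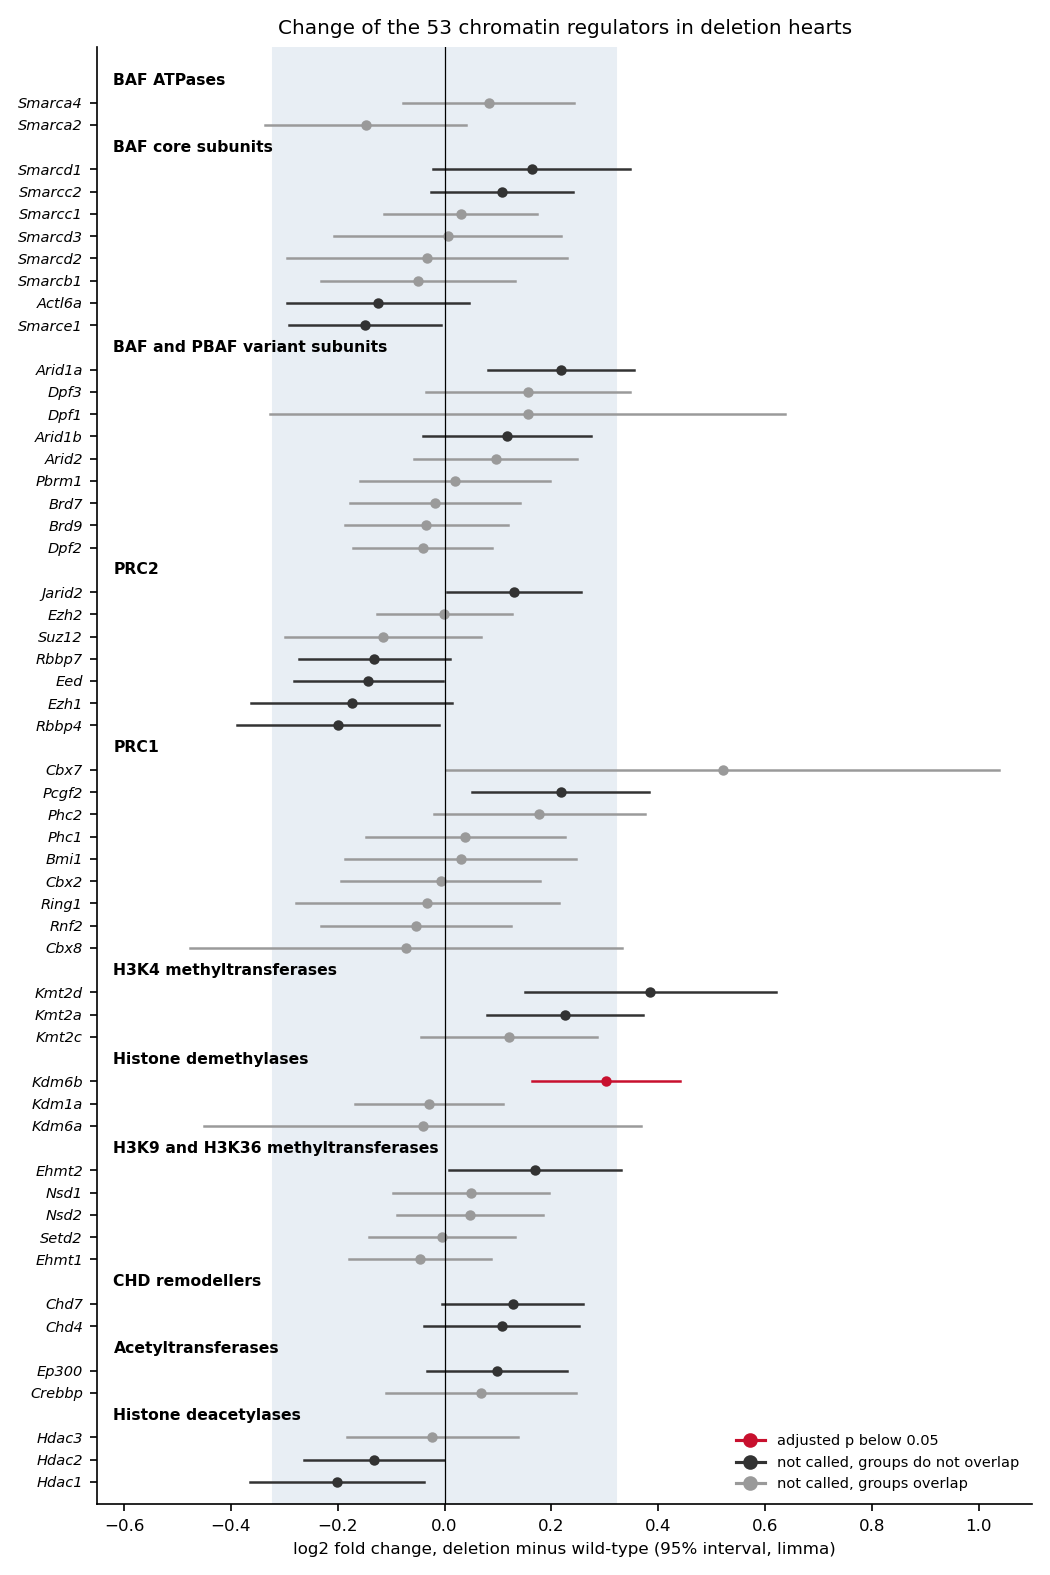
Log2 fold change (deletion minus wild-type) of each of the 53 regulators with its 95% interval from limma, grouped by role; the shaded band reaches 0.32 either way. Kdm6b, in red, is the 1 member past the threshold, and 36 intervals lie inside the band.

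Levels spanned a wide range. Per kb of the longest protein-coding transcript, the histone-binding protein gene Rbbp7, shared by PRC2 and the NuRD deacetylase complex, stood highest, at 6882 normalized counts per kb in deletion and 7536 in wild-type hearts. Its paralogue Rbbp4 followed at 3065 and 3527, then the BAF subunit gene Smarce1 at 2787 and 3092 and the NuRD ATPase gene Chd4 at 2956 and 2745. Chd4 stood above Smarce1 in deletion hearts and below it in wild-type hearts. At the low end stood Cbx7 with 26.6 and 18.2 per kb, Dpf1 with 55.8 and 49.3, and Cbx8, another PRC1 reader, with 64.3 and 67.7. Each of these 3 genes overlapped between groups.

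**Figure D2:**
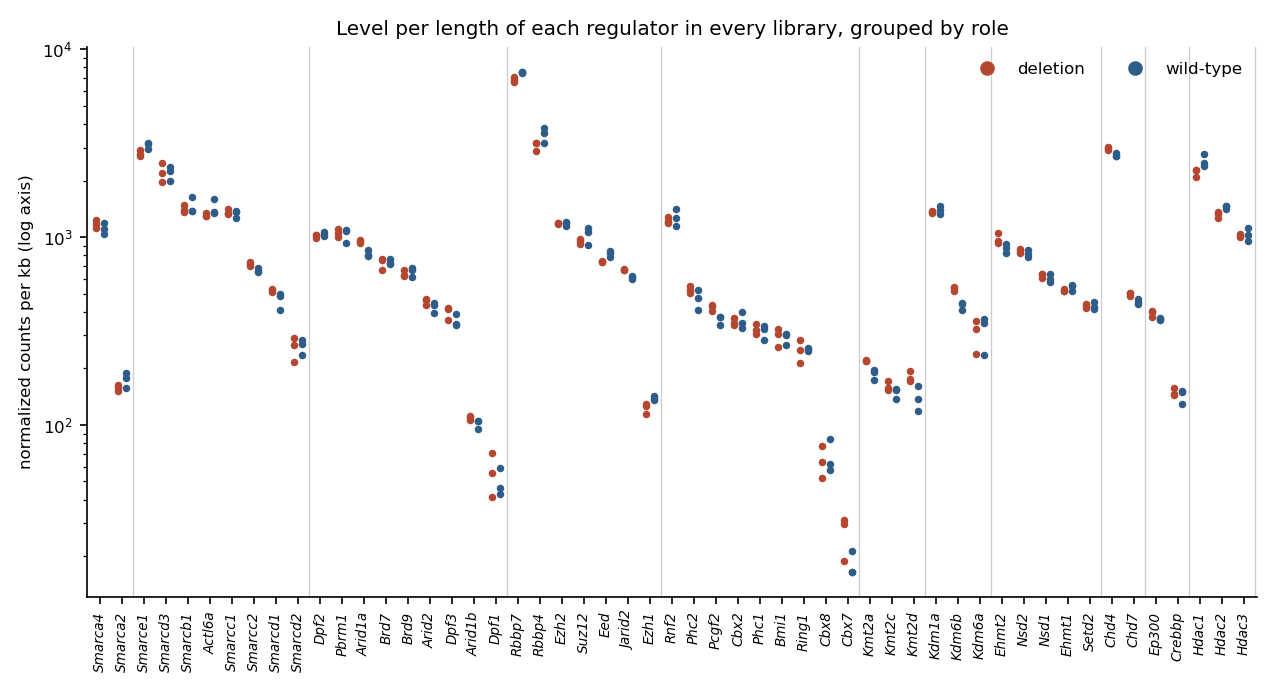
Normalized counts per kb of transcript (log axis) of each regulator in every library, grouped by role and ordered by the wild-type level; deletion libraries stand left of wild-type libraries. Rbbp7 is highest, at 6882 per kb in deletion and 7536 in wild-type hearts, and Cbx7 lowest, at 26.6 and 18.2.

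Among the BAF ATPases, Smarca4 (Brg1), the catalytic subunit used by most embryonic cells, had 7107, 7492 and 7904 normalized counts in deletion hearts, against 7548, 7053 and 6657 in wild-type hearts. Its paralogue Smarca2 had 897, 964 and 941, against 1125, 933 and 1053. Groups overlapped for both genes (log2 fold changes 0.08 and −0.15, adjusted p = 0.544 and 0.348 in limma). Per kb, Smarca4 exceeded Smarca2 by 7.46-fold in deletion and 6.34-fold in wild-type hearts.

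None of the 8 core subunits passed the test. Smarcd3 (Baf60c), the subunit known to bring BAF complexes to heart and muscle genes in mice, was at 4292, 3825 and 3395 in deletion hearts, against 4090, 3460 and 3895 in wild-type hearts. These values overlap, and the log2 fold change was 0.01 with an interval from −0.21 to 0.22. Smarcd1, a broadly used alternative to Smarcd3, had 1693, 1720 and 1743, against 1652, 1615 and 1355. Every deletion library was above every wild-type library, by a small margin (log2 fold change 0.16, adjusted p = 0.289, limma). Smarce1, a DNA-binding subunit, had 8462, 8038 and 7909, against 9178, 8628 and 9267, with all deletion libraries lower (−0.15, adjusted p = 0.213, limma). Smarcb1, Smarcc1, Smarcc2, Smarcd2 and Actl6a lay between −0.12 and 0.11, with groups apart for Smarcc2 (higher) and Actl6a (lower). With the length and GC trend described below removed, Smarcd1 (3307 bases) was at 0.06 and Smarcc2 (4562 bases) at 0.02. Smarce1 (2919 bases) was then at −0.18 and Actl6a (2010 bases) at −0.08.

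The subunits that set the identity of a BAF or PBAF complex gave 0 calls among 9. Arid1a, which defines the canonical BAF complex, had the largest difference: 7603, 7781 and 7939 in deletion hearts, against 6471, 6984 and 6596 in wild-type hearts. The groups stood apart, but the log2 fold change of 0.22 (SE 0.06) had an adjusted p of 0.0830 in limma, 0.0801 in edgeR and 0.0217 in DESeq2. Its transcript is 8187 bases long with 56.7% GC, and with the length and GC trend described below removed the value was 0.07. The PBAF genes Arid2, Pbrm1 and Brd7 had log2 fold changes of 0.10, 0.02 and −0.02, and Brd9, of the non-canonical complex, −0.03. Dpf3, which reads acetylated histones and is known from zebrafish and mouse heart and muscle, had 1308, 1297 and 1135, against 1075, 1217 and 1063, with overlap (0.16, adjusted p = 0.324, limma). Dpf2, the widely expressed member of that family had 3404, 3388 and 3259, against 3543, 3356 and 3445 (−0.04, adjusted p = 0.728, limma). It was the highest of the 9 per kb in wild-type hearts, and Pbrm1 the highest in deletion hearts, at 1011 and 1040 per kb for Dpf2 and 1049 and 1036 for Pbrm1.

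Of the 7 PRC2 genes 6 had negative log2 fold changes, as did 7906 of all 15330 genes, and none passed the test. The group median was −0.13, and −0.09 with the length and GC trend removed, at a median GC content of 44.7%. Rbbp4 had 13989, 13939 and 12599 normalized counts in deletion hearts, against 16848, 14034 and 15743 in wild-type hearts (−0.20, adjusted p = 0.212, limma). Rbbp7 had 15333, 15899 and 15098, against 16987, 16763 and 16981 (−0.13, adjusted p = 0.269). The groups did not overlap for either, nor for Eed, the subunit that binds trimethylated lysine 27, at 1532, 1541 and 1522 against 1750, 1617 and 1708 (−0.14, adjusted p = 0.224). Suz12, the scaffold of the complex, overlapped (−0.12). Jarid2, a PRC2 cofactor whose loss in mice gives cardiac defects, was the member on the other side, at 4003, 3992 and 4040 in deletion hearts, against 3690, 3580 and 3735 in wild-type hearts. Its groups stood apart as well (0.13, SE 0.06, adjusted p = 0.221, limma).

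The PRC1 list gave 0 calls among 9, and the E3 ligase genes that ubiquitinate histone H2A overlapped between groups. Rnf2 had 4094, 3794 and 3882 in deletion hearts, against 3684, 4065 and 4497 in wild-type hearts (−0.05), and Ring1 a log2 fold change of −0.03. Pcgf2 (Mel18), one of the ring-finger partners of Rnf2, had 1067, 1076 and 1001, against 931, 931 and 844. All its deletion libraries were higher (0.22, SE 0.07, adjusted p = 0.133, limma), while its paralogue Bmi1 overlapped (0.03). Cbx7, a chromodomain reader of H3K27 methylation, had 106, 101 and 63.7, against 72.6, 56.0 and 55.8. The third deletion library, labelled male, fell below the highest wild-type library, so the largest fold of the members (0.52, SE 0.23, adjusted p = 0.232, limma) rested on few reads and overlapping groups. Cbx2, Cbx8, Phc1 and Phc2 lay between −0.07 and 0.18.

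Kdm6b and its X-linked paralogue Kdm6a remove methyl groups from lysine 27, the mark that PRC2 places. Kdm6b stood at 3570, 3430 and 3626 normalized counts in deletion hearts, against 2728, 2953 and 2943 in wild-type hearts. The lowest deletion library exceeded the highest wild-type library, and the gene rose by a log2 fold change of 0.30 (SE 0.06, adjusted p = 0.0341, limma). The call also stood in edgeR (adjusted p = 0.0294) and DESeq2 (adjusted p = 0.00183). It ended when the length and GC trend was removed (0.13, adjusted p = 0.355), with sex as a covariate (adjusted p = 0.0543), with no intensity trend (adjusted p = 0.117) and with the replicate block. It also ended without any 1 of the deletion libraries or wild-type replicate 3, where the fold was 0.28 to 0.32 and the adjusted p 0.0851 to 0.142 in limma. Kdm6a had 2116, 1931 and 1408 in deletion hearts, against 2078, 2163 and 1395 in wild-type hearts. The low library of each group is the one labelled male, at 67.6% of the mean of the 4 female libraries, and Kdm6a is known to escape X inactivation in mice. With sex in the model its log2 fold change between genotypes was −0.04 with an interval from −0.20 to 0.12. Kdm1a, a demethylase of lysine 4 that works with deacetylases, had 4193, 4140 and 4069, against 4434, 4230 and 3997 (−0.03, adjusted p = 0.833, limma).

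**Figure D3:**
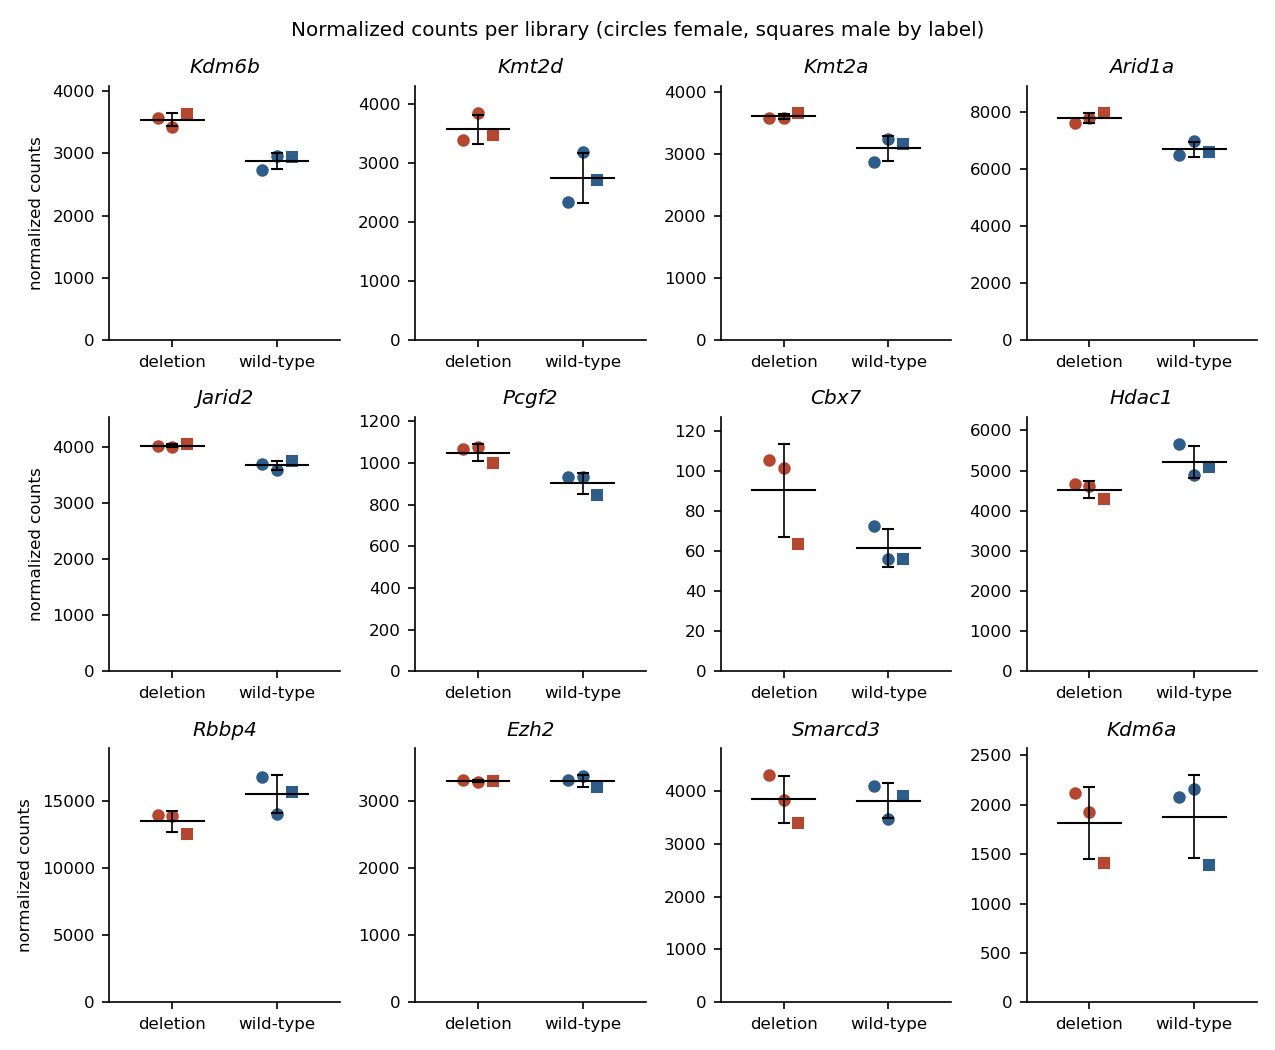
Normalized counts of 12 regulators in every library, with the mean and SD of each group of 3; each axis starts at 0. Kdm6b was at 3430 to 3626 in all deletion libraries, above 2728 to 2953 in wild-type libraries, while Ezh2 and Smarcd3 overlap and Kdm6a is low in the male library of each group.

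The H3K4 methyltransferase genes had the highest group median, 0.23, with 0 past the threshold. Values were positive in 3 of 3, as in 7424 of all 15330 genes. Kmt2d, the enhancer methyltransferase mutated in Kabuki syndrome in humans, had 3389, 3848 and 3487 in deletion hearts, against 2348, 3188 and 2724 in wild-type hearts. The groups stood apart, with wild-type libraries that spread widely (0.39, SE 0.11, adjusted p = 0.0787 in limma, 0.0790 in edgeR and 0.0115 in DESeq2). Without wild-type replicate 2, the highest of its group, the gene was called (0.50, adjusted p = 0.0170, limma). Leaving that library out itself widens the difference, and 1161 of all genes were then called, against 467. With any other library left out Kmt2d was not called, with folds down to 0.28 and adjusted p up to 0.263 in limma. Kmt2a (Mll1), which maintains Hox gene expression, had 3587, 3588 and 3657, against 2866, 3243 and 3163. Its deletion libraries were close together and all higher (0.23, SE 0.07, adjusted p = 0.0900 in limma, 0.0818 in edgeR and 0.0428 in DESeq2). Kmt2c overlapped (0.12). These are the longest transcripts of the members, at 19823, 16470 and 14967 bases, and with the length and GC trend removed the values were 0.12 for Kmt2d, 0.07 for Kmt2a and 0.01 for Kmt2c.

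Among enzymes of H3K9 and H3K36 methylation, 0 of 5 passed. Ehmt2 (G9a), which dimethylates lysine 9, had 3850, 4251 and 3740 in deletion hearts, against 3689, 3536 and 3303 in wild-type hearts, narrowly apart (0.17, adjusted p = 0.215, limma). Its partner Ehmt1 had −0.05, and the lysine 36 enzymes Setd2, Nsd1 and Nsd2 had −0.01, 0.05 and 0.05. Chd7, the remodeller mutated in CHARGE syndrome in humans, had 5132, 5122 and 4938, against 4489, 4630 and 4792 (0.13, adjusted p = 0.247, limma). Chd4 had 19886, 20111 and 19392, against 18157, 18800 and 18198 (0.11, adjusted p = 0.383). Both stood apart by group without passing the threshold. Their transcripts have 10216 bases for Chd7 and 6697 for Chd4, and with the length and GC trend removed each value was 0.01. That of Ehmt2, with 60.8% GC, was then 0.003.

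Ep300, an acetyltransferase of enhancers and a partner of cardiac GATA factors, had 3847, 3603 and 3841 in deletion hearts, against 3468, 3517 and 3563 in wild-type hearts (0.10, adjusted p = 0.373, limma), and Crebbp a log2 fold change of 0.07. With the length and GC trend removed, Ep300 (9566 bases) was at −0.007 and Crebbp (10820 bases) at −0.05. The class I deacetylase genes had negative values in 3 of 3, as did 7906 of all 15330 genes, with 0 called. Hdac1 had 4658, 4627 and 4280, against 5655, 4882 and 5077. All its deletion libraries were lower (−0.20, SE 0.07, adjusted p = 0.153, limma), and so were those of Hdac2 (−0.13, adjusted p = 0.233), while Hdac3 overlapped (−0.02). With the length and GC trend removed, Hdac1 (2038 bases) was at −0.17, Hdac2 (3250 bases) at −0.12 and Hdac3 (2032 bases) at 0.009.

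Groups did not overlap for 13 members with deletion higher (24.5%) and 8 with deletion lower (15.1%), where 12.9% and 14.5% of all genes did so. Of the 13 on the higher side 8 have transcripts over 6 kb, as do 0 of the 8 on the lower side, and the 13 run from 2485 bases for Pcgf2 to 19823 for Kmt2d. The median transcript of the 53 regulators has 4026 bases and that of all genes 2963, and 30.2% of members against 12.8% of genes exceed 6 kb. Over 6 kb, 15 of 16 members had a positive log2 fold change, with a median of 0.10, and 65.1% of all 1932 genes of that length did, with a median of 0.06. From 3 to 6 kb it was 10 of 23 members against 55.6% of genes, and under 3 kb 3 of 14 members against 38.5%. GC content moved with the same difference: of members over 6 kb with a GC content above the gene median, 10 of 10 were positive, as were 80.3% of all such genes.

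Spearman's rho between transcript length and log2 fold change was 0.46 over the 53 members and 0.27 over 15042 genes, and with GC content 0.45 and 0.16. With the trend removed the members kept 0.28 with length and 0.22 with GC content, against 0.03 and 0.03 over all genes. These are descriptions across genes that share the same 6 libraries. Members over 6 kb had a median deviation from their gene means of 0.06, 0.05 and 0.09 on the log2 scale in deletion replicates 1 to 3, against −0.13, −0.01 and −0.03 in wild-type replicates 1 to 3. All genes over 6 kb gave 0.04, 0.01 and 0.05, against −0.12, 0.03 and 0.004, so wild-type replicate 1 was lowest in both sets. After a smooth trend with length and GC was removed from each library, the member median was −0.03 against −0.02 over all genes. Of the members, 0 were then called in limma, while 3.59% of all genes were, and 1.38% of all genes were higher. The part of this trend in any single value was not tested.

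**Figure D4:**
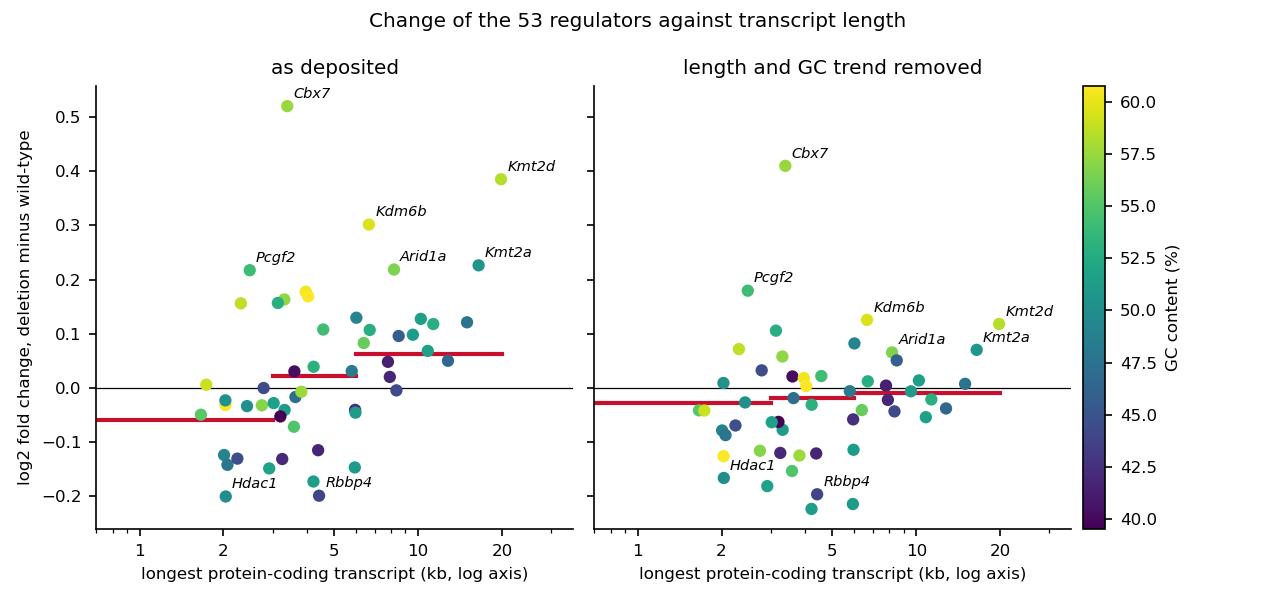
Log2 fold change (deletion minus wild-type) of the 53 regulators against transcript length (log axis), as deposited on the left and with the length and GC trend removed on the right; colour gives GC content and red lines the median of all genes under 3 kb, from 3 to 6 kb and over 6 kb. On the left 15 of the 16 members over 6 kb lie above 0, and Kdm6b is at 0.30 on the left and 0.13 on the right.

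The balance between paralogues was compared within each library, since a ratio does not depend on how a library was scaled. Of 18 pairs 7 (38.9%) had no overlap between groups. Taken singly, 27.4% of all genes and 39.6% of the members had none, shares that are no baseline for ratios. No pair can pass an exact two-sided permutation test of 3 against 3, whose smallest p is 0.1, or 0.257 adjusted over the 18 pairs. The log2 ratio of Ezh2 to Ezh1, its counterpart in non-dividing cells, was 2.61, 2.76 and 2.63 in deletion hearts, against 2.46, 2.57 and 2.46 in wild-type hearts. Every deletion library had the higher ratio, a difference of 0.17. Ezh1 was lower in every deletion library, with 543, 482 and 531 normalized counts in deletion hearts against 603, 568 and 582 in wild-type hearts. For Cbx2 to Cbx7 the log2 ratio was 3.64, 3.80 and 4.33, against 4.36, 4.54 and 4.46, a difference of −0.53 on few Cbx7 reads. For Ehmt1 to Ehmt2 it was −0.28, −0.47 and −0.28, against −0.17, −0.10 and −0.10. These 3 pairs were also apart with the length and GC trend removed. The pairs Smarca4 to Smarca2 (difference 0.23), Smarcc1 to Smarcc2 (−0.08), Arid1a to Arid1b (0.10) and Phc1 to Phc2 (−0.14) were apart in the deposited values and overlapped after that removal. Bmi1 to Pcgf2 overlapped in the deposited values and was apart, with deletion lower, after it (difference −0.16).

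Of 114 measured genes from 115 further chromatin genes of the same complexes and marks, 2 rose and 0 fell in limma, against 1.55% and 1.5% of all genes. At an unadjusted p under 0.05, 26 were higher and 5 lower, against 10.2% and 11.2% of all genes. The median log2 fold change of these genes was 0.06, against −0.0073 over all genes, and −0.01 with the length and GC trend removed, against −0.02. Both genes that rose erase lysine 9 methylation. Kdm4b, which acts on trimethylated lysine 9 and 36, had 1647, 1520 and 1476 normalized counts in deletion hearts, against 1289, 1195 and 1126 in wild-type hearts (log2 fold change 0.36, SE 0.08, adjusted p = 0.0371, limma). Kdm3a, which acts on mono- and dimethylated lysine 9 and is a known hypoxia-inducible gene, had 2591, 2475 and 2753, against 2167, 2114 and 2015 (0.31, SE 0.07, adjusted p = 0.0376). The groups stood well apart for each. With the length and GC trend removed Kdm3a kept its call (0.31, adjusted p = 0.0276) and Kdm4b did not (0.22, adjusted p = 0.103), and each call ended without any 1 of the deletion libraries or wild-type replicate 3. That of Kdm3a also ended with sex as a covariate, and both ended with no intensity trend and with the replicate block. With the trend removed and the block together neither was called. The folds themselves stayed: with each library left out they were 0.27 to 0.35 for Kdm3a and 0.32 to 0.41 for Kdm4b.

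In limma 3 of the 167 chromatin genes of both lists were called, where 3.05% of all genes were, so the number of calls is no result about these lists. The 3 all encode demethylases with a JmjC domain, which need oxygen, iron and 2-oxoglutarate. This grouping was made from the 3 called genes after the values were seen. The counts below, also those of edgeR and DESeq2 on the same reads, therefore only describe it and carry no test. Of 13 such genes 3 were higher and 0 lower in limma, where 1.55% of all genes were higher and 1.5% lower. In edgeR and in DESeq2 3 of the 13 were called as well. Of the 154 other chromatin genes 0 were called in limma, 1 in edgeR and 12 in DESeq2. Over all genes edgeR called 3.26% and DESeq2 7.89%. With the length and GC trend removed, 1 of the 13 (Kdm3a) and 1 of the 154 (Hdac9) were called, against 3.59% of all genes. Kdm3b, a paralogue of Kdm3a, and the lysine 4 demethylase gene Kdm5b also had no overlap between groups (0.22 and 0.21, adjusted p = 0.145 and 0.131, limma). Their transcripts have 6363 and 8714 bases, and with the length and GC trend removed the values were 0.13 and 0.15. That makes 5 of the 13 apart with deletion higher, against 12.9% of all genes. Log2 fold changes of the other 8 ran from −0.04 for Kdm6a to 0.11 for Kdm2a. Kdm5c, which is X-linked like Kdm6a, was likewise low in the male library of each group, with 6207, 6551 and 4591 against 6218, 5957 and 4326.

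**Figure D5:**
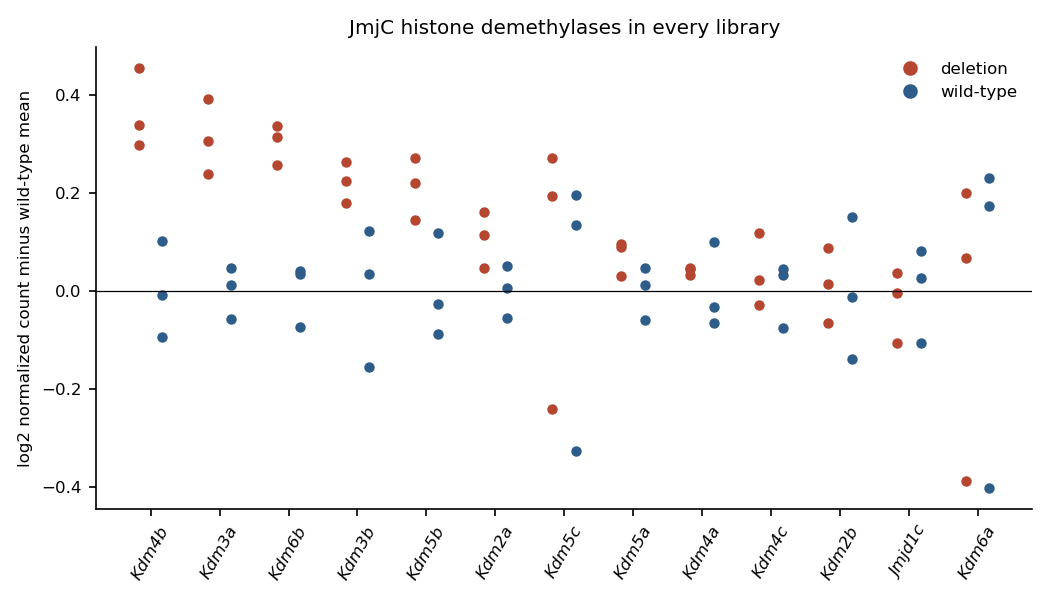
Log2 normalized count of each JmjC demethylase gene in every library, minus the wild-type mean of that gene, ordered by fold change with deletion libraries left of wild-type libraries. Kdm4b, Kdm3a and Kdm6b stand above all wild-type libraries by log2 fold changes of 0.36, 0.31 and 0.30, and the low point of each group for Kdm5c and Kdm6a is the male library.

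Lists with no call are given by the member that differed most. Srcap, the ATPase that exchanges histone H2A.Z, had 290, 350 and 325 normalized counts in deletion hearts, against 191, 267 and 213 in wild-type hearts (0.53, adjusted p = 0.0751, limma). Dpy30, a small core subunit of the Kmt2 complexes with a transcript of 789 bases, had 1739, 1832 and 1798, against 2628, 2076 and 2277 (−0.37, adjusted p = 0.0516). Hdac9, a class IIa deacetylase gene of muscle, had 783, 706 and 819, against 893, 934 and 1192 (−0.38, adjusted p = 0.102), and passed with the length and GC trend removed (−0.41, adjusted p = 0.0463). Log2 fold changes were 0.51 for Bcl11b, 0.40 for Epop and 0.33 for Kmt5c (adjusted p = 0.374, 0.179 and 0.0624, limma). In the Polycomb list Phf19 lay as far on the other side, at −0.40. Bcl11b was low and overlapped, with 52.8, 67.8 and 67.0 against 47.7, 64.1 and 26.5. In DESeq2 the adjusted p was 0.0237 for Srcap, 0.00535 for Dpy30, 0.0341 for Hdac9 and 0.0124 for Kmt5c. It was 0.519 for Bcl11b, 0.154 for Epop and 0.318 for Phf19, where DESeq2 called 7.89% of all genes. With the length and GC trend removed, Srcap (10654 bases) was at 0.39, Dpy30 at −0.20 and Kmt5c at 0.20 (adjusted p = 0.125, 0.231 and 0.136, limma). Epop was then at 0.18, Bcl11b at 0.43 and Phf19 at −0.47 (adjusted p = 0.463, 0.446 and 0.139, limma).

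Genes reported in mice as targets of these regulators in heart were also read: 10 of 12 were measured, and in limma 1 was lower and 0 higher, against 1.5% and 1.55% of all genes. At an unadjusted p under 0.05, 3 were lower and 2 higher, against 11.2% and 10.2% of all genes. Cdkn1c, a cell cycle inhibitor gene reported to change when Brg1 is lost, had 17584, 17833 and 16169 normalized counts in deletion hearts, against 28853, 25747 and 28764 in wild-type hearts. It fell by 0.69 on the log2 scale (SE 0.08, adjusted p = 0.00276, limma) and was called in all 20 alternatives that kept the groups. Bmp10, reported with it, had a log2 fold change of −0.09, and the myosin genes Myh6 and Myh7, which Brg1 is known to regulate in opposite ways, 0.29 and 0.18 (adjusted p = 0.159 and 0.412, limma). Notch1, a target of Jarid2, had 1418, 1390 and 1406, against 1753, 1612 and 1749 (−0.28, adjusted p = 0.0514), and passed with the length and GC trend removed (−0.45, adjusted p = 0.00812). Its groups stood apart without passing the threshold in limma on the deposited values. In DESeq2, which called 7.89% of all genes, the adjusted p was 0.0204 for Notch1, 0.000944 for Myh6 and 0.104 for Myh7. With the length and GC trend removed, Myh6 (6113 bases) was at 0.16 and Myh7 (6230 bases) at 0.05. Neither then passed (adjusted p = 0.429 and 0.840, limma).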

How the data were processed

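Poly(A) RNA was sequenced from 300 ng of total RNA per library, in stranded TruSeq libraries, per the labels' protocols. STAR 2.7.9a, Subread 2.0.1 with featureCounts, bcl2fastq 2.20, DESeq2 1.30.1, GRCm39 and mm39 are listed in the submitters' processing notes. No annotation, strand setting or gene filter is stated there. Per the file names and headers, the authors deposited normalized counts, a signal in which the reads of each gene are divided by the library's size factor. Columns were given to samples by the code in the sample title. For 4 of the 6 libraries the per-sample file is recorded under the other group, and that record was run as an alternative. In each column 100% of values were whole multiples of 1 read within 0.01, so edgeR 4.0.16 and DESeq2 1.42.0 could be run on recovered reads as alternatives.

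All 15330 genes were tested together with limma 3.58.1 in R 4.3.3, with an intensity trend, as log2 of the normalized count plus 1, keeping genes with a mean of at least 10, which removed none, with Benjamini-Hochberg adjustment and 0.05 as threshold. Fold changes are deletion minus wild-type on that scale, which understates the change of low genes. The test was tried on simulated counts first. Length and GC content come from the longest protein-coding transcript in GENCODE M21 (98.1% of rows), which is on another build, so no coordinates are given; their trend was removed per library with natural splines of 4 degrees of freedom. The members and lists were chosen with earlier results of these data known. The genes named are members past the threshold and, in each role group, the largest change and the highest level per kb, plus called genes of the other lists or, with none, their largest change; further members were picked for their role after their values were seen. 1 gene of the target list is not reported here.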

Additional observations from a re-analysis of the deposited data

How the results depend on the processing

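The count of members called lower was 0 under all 21 alternatives. The alternative without a minimum mean kept the same genes and could not differ. The count called higher, 1 with the deposited values, was 4 in DESeq2 (Arid1a, Kmt2a, Kmt2d and Kdm6b) and 0 without an intensity trend, with sex as a covariate, with the replicate block, with the length and GC trend removed (with or without the block) and under the recorded files. It was 0 to 2 with each library left out. The causes were not tested. The member median, 0.0199, was 0.0642 at equal totals, 0.0464 after quantile normalization, −0.0273 with the trend removed (with or without the block), −0.0031 under the recorded files and 0.019 to 0.0579 with each library left out. The wider list, with 2 calls, had 6 at equal totals, 5 after quantile normalization, 11 in DESeq2, 0 without an intensity trend, 1 with sex, 0 with the replicate block (Kdm3a and Kdm4b lost), 1 with trend removal and block (Hdac9, not Kdm3a), 0 under the recorded files and 0 to 9 with each library left out. Over all genes 467 were called, against 146 without an intensity trend, 1139 in DESeq2, 206 with the replicate block, 0 under the recorded files and 103 to 1161 with each library left out. Pairs of paralogues apart numbered 7, against 4 with the trend removed, 1 under the recorded files and 7 to 10 with each library left out. Under the recorded files Hand2 was at 0.57 and Kdm6b at −0.10 on the log2 scale.

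Replicate numbers did not pair the libraries: deviations of same-numbered libraries correlated at −0.035, −0.121 and −0.137. No library correlated best with its own number. Depth limits the genes of low counts most: the intervals of Cbx7 and Dpf1 reach past the changes of the other members.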
